A study of Oryza sativa with 6 samples.

Results

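The plasma membrane H+-ATPases are the proton pumps that energise the surface of plant cells, and rice has a family of them named OSA. Members were taken by locus, as every probe set whose transcript annotation names 1 of 10 OSA loci. That gave 14 probe sets for 10 genes, out of 57258 probe sets and 37390 named genes on the array. Transcript levels came from root tips (0 to 1 cm) of Japonica rice seedlings, measured on 6 Affymetrix Rice arrays. The seedlings were 5 d old and floated on 0.5 mM CaCl2. In 1 group (3 arrays) the tips were taken before aluminium (Al), and in the other (3 arrays) after 6 h in 0.5 mM CaCl2 with 50 µM Al at pH 4.5. The labels name no genotype beyond Japonica, call the 3 arrays of each group biological repeats, and do not say whether each came from a separate culture. The p-values below therefore cover the variation among these 6 arrays. A group given the 6 h without Al was not analysed here, and the effects of Al, of the solution at pH 4.5 and of elapsed time cannot be told apart.

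Each H+-ATPase is a single polypeptide of the P-type ATPase superfamily. It spends ATP to push protons out of the cell, which acidifies the cell wall and holds the membrane voltage that drives uptake of potassium, nitrate, phosphate, sugars and amino acids. Its C-terminal tail inhibits the pump. Phosphorylation of the tail and binding of a 14-3-3 protein release that inhibition. In roots the pumps support cell elongation and nutrient uptake, and proton and organic anion transport across the root surface bear on how acid soils and Al are tolerated.

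The annotation matched the family label unevenly. The product text read plasma membrane ATPase for 5 members (OSA1, OSA2, OSA3, OSA7 and OSA8) and plasma membrane-type ATPase for 4 (OSA4, OSA6, OSA9 and OSA10). For OSA5 (LOC_Os08g14360) it read only expressed protein, although the source record of its second probe set calls it a proton-efflux P-type ATPase. Membrane spans predicted under identifiers other than locus names, the only ones for OSA5, were not counted. Under locus names the deposited table carries predictions for 14 transcript models of the 9 other genes. Of these models, 5 had 8 spans, 5 had 9 spans and 4 had fewer than 8, with a range of 5 to 9. OSA3, OSA4 and OSA6 each had a second model with fewer spans than the first, namely 6, 7 and 5 against 8. Another locus with the same product text, LOC_Os03g01670, is not an OSA gene, and its 1 probe set that matched no other locus was called present on 0 of 6 arrays.

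Detection split the family. Of the 14 probe sets, 4 were called present on all 6 arrays, namely those of OSA2, OSA3 and OSA7 and the second of OSA1. Another 4 were called present on some arrays and 6 on none. OSA4, OSA6 and OSA9 were absent on every array in both groups, and OSA10 was called present with 1 of its 3 probe sets on 1 array after Al. A probe set called absent is not shown to lack transcript, since the call only compares its matched and mismatched probes.

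**Figure D1:**
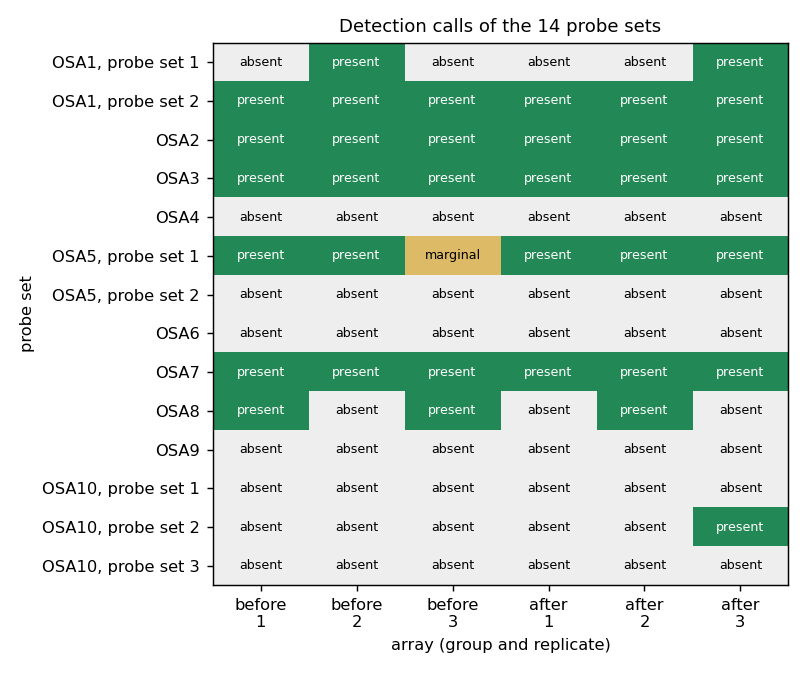
Detection calls (present, marginal or absent) of the 14 OSA probe sets, 1 row each, on the 3 arrays before Al and the 3 after Al. The probe sets of OSA2, OSA3 and OSA7 and the second of OSA1 were present on all 6 arrays, while OSA4, OSA6 and OSA9 were present on none.

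The test took probe sets with 3 or more present calls among the 6 arrays, which left 6 of the 10 genes: OSA1, OSA2, OSA3, OSA5, OSA7 and OSA8. For these 6 probe sets the annotation lists 0 other loci as cross-hybridising. OSA3 and OSA7 were lower after Al and no member was higher by the test. The log2 change was -0.49 for OSA3 and -0.25 for OSA7. The median absolute log2 change was 0.22 over all tested probe sets and 0.52 over those called lower. The limma fit over all 25283 tested probe sets called 2 of the 6 genes lower and 0 higher at a Benjamini-Hochberg adjusted p under 0.05. At an unadjusted p under 0.05 the same fit gave 2 genes in all, both lower. Over all tested probe sets 15.9% were called lower, 14.3% higher and 30.2% in either direction. Counted by gene, 33.4% were called in either direction and 17.5% lower. The 2 of 6 members called is near the share in either direction, and nothing particular to the family follows from the count. The median log2 change of the 6 genes was -0.07, and that of all tested probe sets was -0.04.

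OSA3 (LOC_Os12g44150) had the largest change of the tested members that passed. Its probe set aligns to chromosome 12, 27353612 to 27360162, on the plus strand, and all 11 of its probes match the gene. Its log2 signals were 11.79, 11.94 and 11.90 on the 3 arrays before Al and 11.44, 11.42 and 11.30 on the 3 after it. All 3 arrays after Al lay below all 3 before, and the gap of 0.34 between the groups was wider than the SD of either. The means were 11.87 ± 0.08 before and 11.39 ± 0.08 after (SD, n = 3). OSA3 thus fell by 0.49 ± 0.07 (log2 change, SE; limma, adjusted p = 0.000368), with a 95% interval from -0.63 to -0.34. On the linear scale it fell by 28.7%, with an interval from -35.6% to -21.0%.

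OSA7 (LOC_Os04g56160) fell less, and with very little spread between arrays. Its probe set aligns to chromosome 4, 33238675 to 33245784, on the plus strand. Its log2 signals were 13.64, 13.60 and 13.63 before Al and 13.39, 13.39 and 13.34 after it. The groups did not overlap, and the gap of 0.21 between them was wider than the SD of either. The means were 13.62 ± 0.02 and 13.37 ± 0.03 (SD, n = 3). The log2 signal fell by 0.25 ± 0.04 (SE; limma, adjusted p = 0.00201), with a 95% interval from -0.35 to -0.15, and on the linear scale the interval ran from -21.6% to -9.93%. In whole root tips, fewer cells that make a transcript and less transcript per cell cannot be told apart.

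OSA2 (LOC_Os07g09340), aligned to chromosome 7, 4912955 to 4919088, on the plus strand, had the opposite sign and did not pass. Its log2 signals were 12.09, 12.07 and 12.02 before Al and 12.18, 12.15 and 12.17 after it. The arrays after Al lay just above those before, with a gap of 0.06. Of the 6 tested members, 3 had groups that did not overlap: OSA2 higher, OSA3 and OSA7 lower. Among all tested probe sets the share was 43.7%, with 19.6% higher and 24.1% lower, so the members' count is near the background. The log2 change was 0.11 ± 0.05 (SE; limma, adjusted p = 0.134), with a 95% interval from just below 0 to 0.22. The interval leaves room for a rise of up to 16.6% and no more than a very small fall (-0.18%). In the authors' deposited table OSA2 has a fold of 1.08 and an unadjusted p of 0.0252, while the limma fit gave an unadjusted p of 0.0546. The authors' deposited table gives OSA3 a fold of 0.713 (unadjusted p = 0.00171) and OSA7 a fold of 0.841 (unadjusted p = 0.000617).

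**Figure D2:**
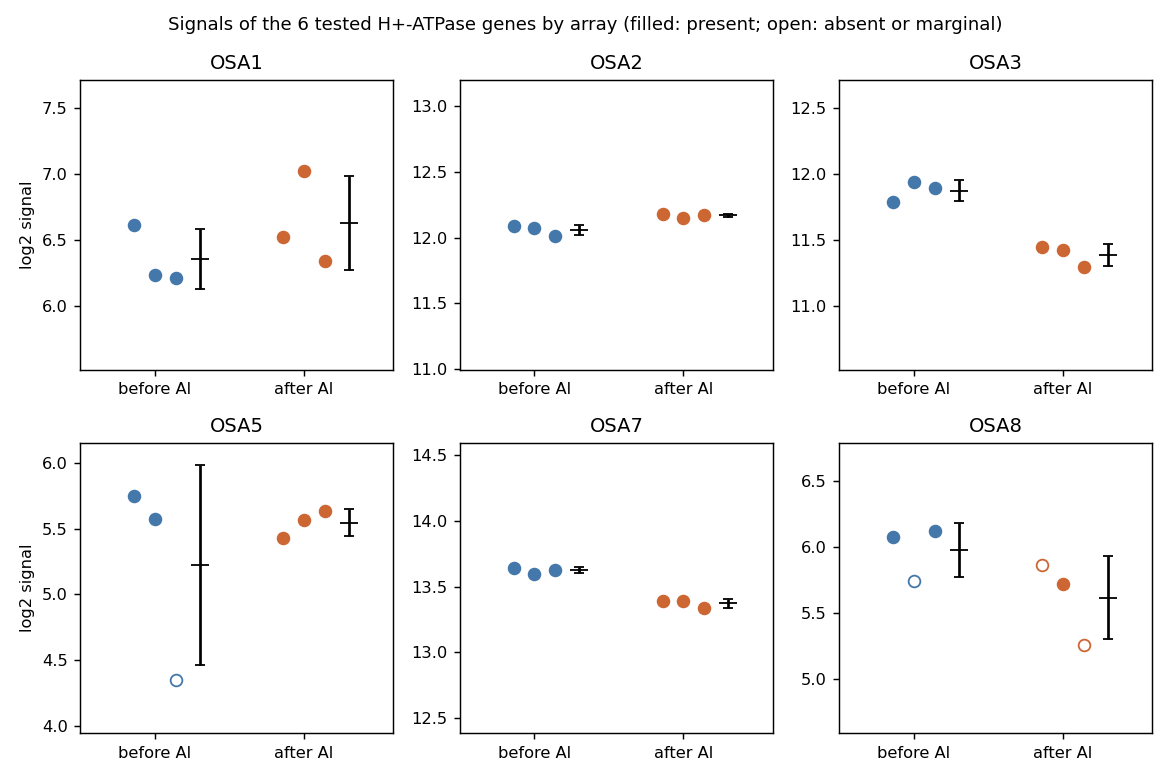
Log2 signal of the 6 tested H+-ATPase genes on each array, 3 before Al (blue) and 3 after Al (orange), with the mean and SD in black beside each group. Filled points were called present and open points absent or marginal. Every panel spans the same 2.2 log2 units but starts at another level, since levels of different probe sets are not compared. OSA3 and OSA7 sit lower after Al on all 3 arrays, OSA2 sits 0.11 higher on average, and the groups of OSA1, OSA5 and OSA8 overlap.

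The other 3 tested members were dim or uneven, and their intervals were wide. OSA1 (LOC_Os03g48310), the pump known in rice for stomatal opening and for ammonium uptake by roots, aligns to chromosome 3, 27459336 to 27466472, on the plus strand. Its second probe set was present on every array, at 6.61, 6.23 and 6.21 before Al and 6.52, 7.02 and 6.34 after it (log2 signal). The groups overlapped, with the second array after Al as the highest. The log2 change was 0.27 ± 0.24 (SE; limma, adjusted p = 0.436), with a 95% interval from -0.26 to 0.81, and it was 0.08 without the second array after Al. Its first probe set was called present on 1 array in each group and was not tested. That probe set had log2 signals of 2.81, 4.58 and 3.78 before Al and 4.87, 4.87 and 4.43 after it. The 2 probe sets of OSA1 thus had the same sign, and in both the groups overlapped.

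OSA8 (LOC_Os03g01120, chromosome 3, 67389 to 77638, plus strand) had present calls on 2 arrays from before Al and 1 from after. Its log2 signals were 6.08, 5.75 and 6.12 before Al and 5.87, 5.72 and 5.26 after it. The groups overlapped, and the third array after Al was the lowest. The log2 change was -0.37 ± 0.26 (SE; limma, adjusted p = 0.347), with a 95% interval from -0.96 to 0.23, and it was -0.19 without the third array after Al.

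OSA5 (LOC_Os08g14360, first probe set on chromosome 8, 8607402 to 8609356, minus strand) had present calls on 2 arrays from before Al and 3 from after. Its log2 signals were 5.75, 5.57 and 4.35 before Al and 5.43, 5.57 and 5.63 after it. Only the third array before Al, which was called marginal, stood apart. The log2 change was 0.32 ± 0.39 (SE; limma, adjusted p = 0.590), with a 95% interval from -0.55 to 1.19. Without the third array before Al the sign turned, to -0.12 (limma, adjusted p = 0.816). The second probe set of OSA5 was absent on every array, and the annotation notes that up to 2 of its probes also match OSA4, OSA6 or OSA10.

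**Figure D3:**
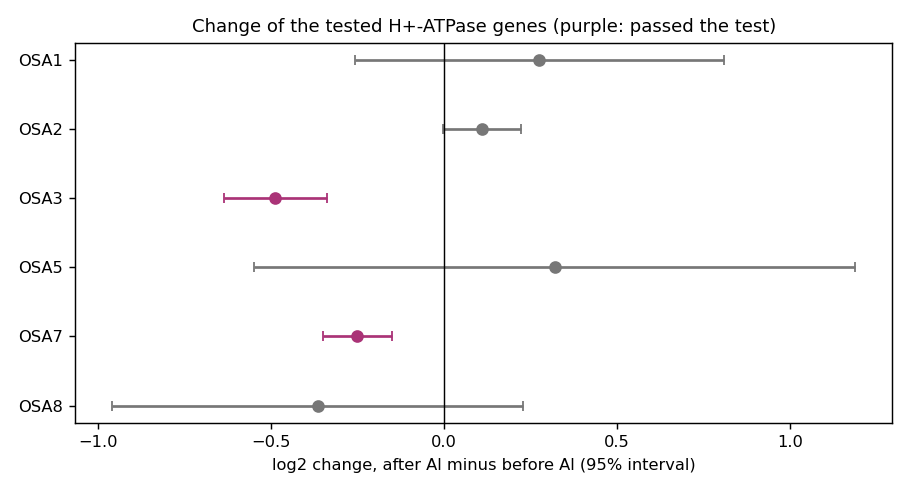
Log2 change (after Al minus before Al) of the 6 tested H+-ATPase genes with its 95% interval from the limma fit. Purple marks OSA3 and OSA7, which passed at an adjusted p under 0.05. The intervals of OSA1, OSA2, OSA5 and OSA8 (grey) include 0.

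The 8 untested probe sets had signals mostly called absent, and no size of change is given for them. OSA4 (LOC_Os05g25550) had log2 signals of 1.40 to 3.11 before Al and 0.32 to 1.12 after it, absent by the call on all 6 arrays. Its arrays did not overlap between the groups, but neither group was detected. In the other 7 the groups overlapped. The 2 other absent genes had signals that went both ways between arrays of 1 group. OSA6 (LOC_Os02g55400) ran from 1.00 to 1.82 before Al and from 0.72 to 2.69 after it. OSA9 (LOC_Os03g08560) ran from 2.79 to 5.64 before Al and from 1.51 to 4.87 after it. The probe set of OSA10 (LOC_Os06g08310) with the highest mean ran from 4.06 to 5.06 before Al and from 3.34 to 4.73 after it. For another OSA10 probe set, at most 1 probe also matches OSA4 or OSA5.

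Whether the members changed unequally was asked with the ratio of 2 genes within each array, which cancels the scaling of the array. The level of such a ratio has no meaning across probe sets, and only its change does. The ratio of OSA2 to OSA3 was 0.30, 0.13 and 0.12 before Al and 0.74, 0.73 and 0.88 after it (log2), a difference of 0.60. The ratio of OSA2 to OSA7 was -1.55, -1.53 and -1.61 before Al and -1.21, -1.24 and -1.16 after it, a difference of 0.36. In both pairs the arrays after Al lay above all arrays before it.

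The log2 ratio of OSA3 to OSA7 was -1.85, -1.66 and -1.73 before Al and -1.94, -1.97 and -2.04 after it, a difference of -0.24. Each of these 3 pairs had an exact permutation p of 0.1 (two-sided), the smallest that 3 against 3 arrays allow, and 0.214 after adjustment over the 15 pairs of tested members. No pair could therefore pass at 0.05. In all, 7 of the 15 pairs did not overlap between the groups, while 45.1% of all pairs of tested probe sets did not, so the count is near the background. With 3 against 3 arrays this test could not decide whether the members changed unequally.

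**Figure D4:**
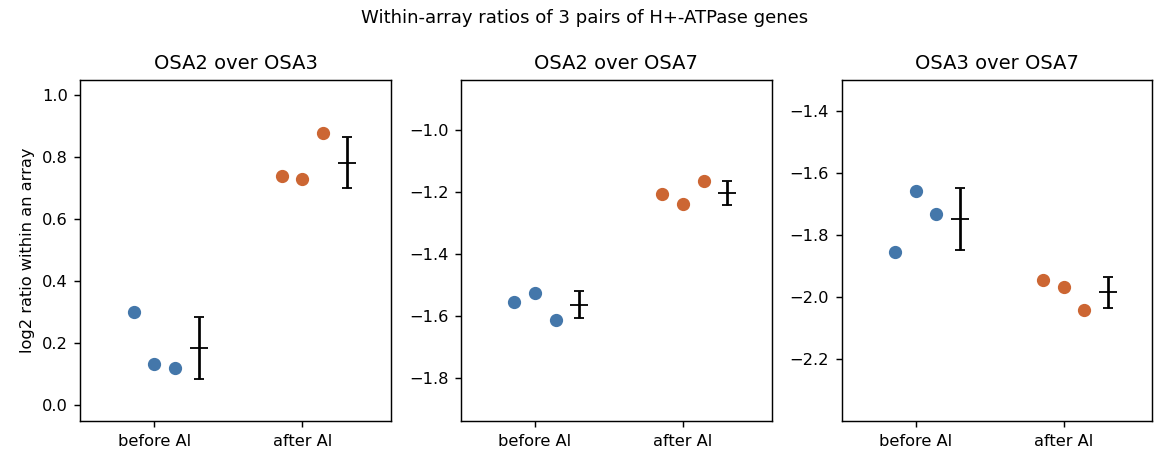
Log2 ratio of 2 genes within each array, for OSA2 over OSA3, OSA2 over OSA7 and OSA3 over OSA7, before Al (blue) and after Al (orange), with mean and SD in black. The groups do not overlap in any of the 3 panels, and the mean ratio differed by 0.60, 0.36 and -0.24. With 3 against 3 arrays no pair could pass the permutation test at 0.05.

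Genes whose signals followed the 2 falling pumps most closely over the 6 arrays were listed by Pearson correlation, as a description. The closest to OSA3 were a UDP-glucose 4-epimerase (LOC_Os08g28730, r = 0.998) and a GPI-anchor transamidase (LOC_Os01g48980, r = 0.998). The closest to OSA7 were an ABC transporter described as multidrug resistance-associated protein 5 (LOC_Os03g04920, r = 0.999) and potassium transporter 11 (LOC_Os09g38960, r = 0.998). The arrays fall into 2 groups, so such values are common. Of 16496 probe sets compared, 900 had r over 0.95 with OSA3 and 1115 with OSA7.

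The genes known to regulate or accompany the pumps were read from the same fit, by word searches of the product text and 1 probe set a gene. Of all 18992 genes tested, 15.9% were called higher and 17.5% lower, and their median log2 change was -0.04. Probe sets that the array maker marks as shared by several transcripts stood for LOC_Os01g23580, LOC_Os05g26990, OsSAUR56, LOC_Os03g20380, LOC_Os01g60910, LOC_Os10g40600 and OsEXPA17. Such a probe set also stood for the green tissue marker LOC_Os08g02630. The values of all these genes are less certain for that reason. The 14-3-3 proteins bind the phosphorylated tail of the pump and activate it. Of 7 measured, 0 were called higher and 0 lower (limma, and 0 at an unadjusted p under 0.05), with a median log2 change of 0.01. Only with a replicate block was 1 of them called, as higher.

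Protein phosphatases 2C include a clade that removes the activating phosphate from the pump in Arabidopsis, and the product text does not separate that clade from the rest. Of 40 tested, 12 were higher and 5 lower, with a median log2 change of 0.05. The lower count was 3 when array 1 or array 3 before Al was left out, and also without the intensity trend. LOC_Os10g39780 rose by 1.15 ± 0.07 and LOC_Os04g52000 by 0.68 ± 0.07 (log2 change, SE), while LOC_Os06g48300 had 0 present calls before Al and 3 later. LOC_Os06g48300 is among the 12 but was tested only through the group where it was high. The higher count was 11 where presence on all 6 arrays was required. LOC_Os06g08140 fell by 0.64 ± 0.09, LOC_Os02g08364 fell by 0.48 ± 0.08 and LOC_Os06g50380 fell by 0.27 ± 0.07.

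SAUR proteins are small proteins of an auxin-responsive family, some of which block those phosphatases in Arabidopsis and so keep the pump active. The product text does not separate such members from the rest. Of 16 tested, 4 were higher and 3 lower, with a median log2 change of 0.20. OsSAUR56 (LOC_Os10g36703) rose by 0.90 ± 0.10, OsSAUR11 (LOC_Os02g42990) by 1.13 ± 0.15 and OsSAUR28 (LOC_Os06g48860) by 1.13 ± 0.17. OsSAUR5 (LOC_Os02g05060) fell by 1.72 ± 0.17, OsSAUR57 (LOC_Os12g41600) fell by 1.61 ± 0.29 and OsSAUR10 (LOC_Os02g30810) fell by 0.33 ± 0.08. The OsSAUR10 call was lost without the first array before Al (limma, adjusted p = 0.0558) and without the intensity trend (0.0730).

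CBL-interacting kinases are calcium-signalling kinases, 1 of which phosphorylates and inhibits a pump in Arabidopsis. Of 25 tested, 4 were higher and 9 lower, with a median log2 change of -0.18. LOC_Os03g20380 fell by 1.17 ± 0.09, LOC_Os08g34240 fell by 0.79 ± 0.09 and LOC_Os01g60910 fell by 0.82 ± 0.10, while LOC_Os01g18800 rose by 0.33 ± 0.05. The higher count was 1 or 2 without the first or second array of either group, and 2 with no detection filter or no intensity trend. The rises of LOC_Os07g48090 (0.42 ± 0.12) and LOC_Os07g44290 (0.25 ± 0.08) were lost without the first array after Al (limma, adjusted p = 0.0840 and 0.0703), and each was lost when either of the first 2 arrays before Al was left out (0.0686 to 0.112). For LOC_Os07g44290 the same held for array 2 after Al (0.0916).

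Few of the vacuolar proton pumps, which acidify the vacuole, were called. Of 26 tested, 2 were higher and 1 lower, with a median log2 change of 0.03. At an unadjusted p under 0.05 (limma) the number was 5. Over all genes tested, 15.9% were called higher and 17.5% lower, and whether these pumps differ from that was not tested. The proton-pumping pyrophosphatase LOC_Os01g23580, with present calls on 1 of 3 arrays before Al and all 3 later, rose by 1.66 ± 0.17. Since it was absent on most arrays before Al, that size is loosely set. It ran from 1.51 to 1.75 with 1 array left out. Over all alternatives, which include the mean of a gene's probe sets, it reached 2.39. Another proton-pumping pyrophosphatase, LOC_Os02g09150, fell by 0.33 ± 0.10, a call lost without the first or second array after Al or array 3 before it (limma, adjusted p = 0.0831, 0.113 and 0.116). The V-type ATPase subunit LOC_Os03g14690 rose by 0.22 ± 0.07, a call lost without any 1 of 4 arrays (limma, adjusted p = 0.0859 to 0.147): array 2 or 3 after Al and array 1 or 2 before it. It was also lost with no detection filter, no intensity trend or quantile scaling (0.0964, 0.119 and 0.0545). The count of pumps higher was 1 without array 3 after Al or array 1 or 2 before it, and also where presence on all 6 arrays was required. With no detection filter, and with no intensity trend, 1 pump was higher and 0 were lower.

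Other P-type ATPases were called higher more often than lower. Of 13 calcium ATPases, which pump calcium out of the cytosol, 5 were higher and 1 lower, with a median log2 change of 0.23. The plasma membrane type LOC_Os10g28240 rose by 2.77 ± 0.15, LOC_Os03g10640 by 0.88 ± 0.07 and LOC_Os02g08010 by 0.34 ± 0.06, and LOC_Os04g51610 fell by 0.61 ± 0.07. Of 8 phospholipid flippases, which move lipids between membrane leaflets, 4 were higher and 1 lower, with a median of 0.12. LOC_Os03g20949 rose by 0.94 ± 0.07, LOC_Os01g17010 by 0.52 ± 0.09 and LOC_Os05g26990 by 0.35 ± 0.07. LOC_Os08g29150 fell by 0.23 ± 0.07, a call lost without array 2 or 3 after Al or array 1 or 2 before it (limma, adjusted p = 0.0612 to 0.0976). Whether the H+-ATPases differ from these families was not tested.

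Carriers of potassium, nitrate, peptides, phosphate, sulfate and amino acids, many of which run on the proton gradient, went both ways. Of 117 tested, 31 were higher and 23 lower (15 lower without the third array before Al), with a median log2 change of 0.08. Where presence on all 6 arrays was required, 24 were higher and 20 lower. The peptide transporters LOC_Os04g50950 and LOC_Os05g27010 rose by 1.05 ± 0.06 and 1.19 ± 0.12, and a chloroplast sulfate transporter (LOC_Os09g06499) rose by 0.64 ± 0.07. The peptide transporter LOC_Os10g40600 fell by 1.19 ± 0.07 and potassium transporter 11 (LOC_Os09g38960) fell by 1.01 ± 0.09. The amino acid permease LOC_Os04g12499, with present calls on all 3 arrays before Al but 1 later, fell by 1.45 ± 0.12.

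**Figure D5:**
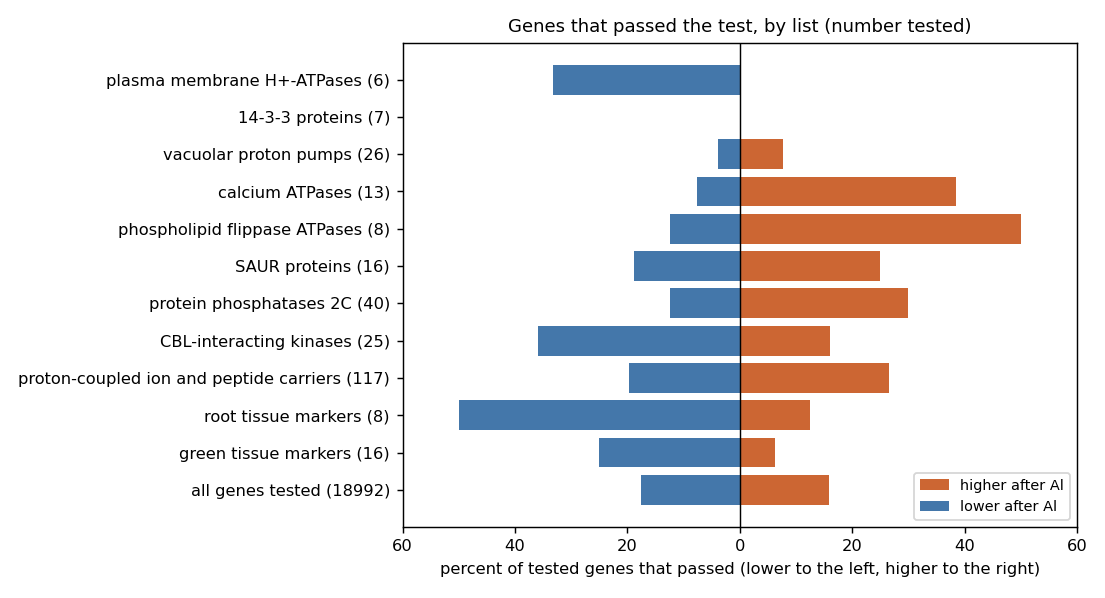
Percent of the tested genes in each list called lower (blue, to the left) or higher (orange, to the right) after Al, with the number tested in parentheses and all genes tested in the bottom bar. The list of genes known for Al tolerance is not shown. Of the 6 tested plasma membrane H+-ATPases 2 were lower, no 14-3-3 gene was called, and 5 of 13 calcium ATPases were higher.

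Markers of root tissues were called lower more often than higher. Of 8 measured, 1 was higher and 4 were lower (median log2 change -0.33), against 15.9% higher and 17.5% lower of all genes tested. All 8 were present on every array and 0 were at 0. Their summed linear signal ran from 14266 to 15172 before Al and from 10761 to 12458 after it. The root hair genes OsCSLD1 and OsEXPA17 fell by 0.73 ± 0.09 and 0.68 ± 0.11, and OsPIN2 and OsSCR1 fell by 0.35 ± 0.08 and 0.93 ± 0.20. Lsi2, a silicon exporter of the mature root, rose by 0.71 ± 0.10. Lsi1 (-0.31 ± 0.10), OsSHR1 (-0.08 ± 0.10) and QHB (0.21 ± 0.17) did not pass. The part of cell composition in the OSA3 and OSA7 results was not tested. Among 16 green tissue markers, which should be low in roots, 1 was higher and 4 lower (median -0.27), with a summed linear signal of 2603 to 2931 before Al and 2179 to 2532 after it. Of these markers 1 was listed at 0 on some array. LOC_Os02g05830, a Rubisco small subunit gene, had 3 present calls before Al and 0 after. It was thus tested only through the group where it was high. Where presence on all 6 arrays was required, 3 green markers were lower. The lower count of the green markers was 2 without array 1 or 2 after Al or array 1 or 3 before it, and the higher count was 3 without the second array after Al.

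The 6 arrays were alike in detection, with between 24836 and 25492 of the 57258 probe sets called present per array. The trimmed means of the linear signal ran from 497.0 to 497.2, but scaling can set these in advance. The median log2 signals were 5.21, 5.21 and 5.25 before Al and 4.99, 5.02 and 5.29 after it. Per array, 1363 to 2184 probe sets stood at the lowest value. Genes known for Al tolerance in rice were read from the same fit, and all 7 measured were called higher after Al, with STAR1 up by 1.86 ± 0.06. Over all genes tested, 15.9% were called higher. The list was chosen with earlier results of these data known, so it is no independent check of the labels. Among the 7, OsFRDL4 had 0 present calls before Al and 3 after it, so it was tested only through the group where it was high, and the count was 6 where presence on all 6 arrays was required. The call of ART1 among them did not hold with array 3 after Al, or array 1 or 2 before it, left out (limma, adjusted p = 0.0559 to 0.0802), nor without the intensity trend (0.0570).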

How the data were processed

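Root tip RNA was hybridised to 6 Affymetrix Rice arrays, 3 before Al and 3 after. The deposited log2 signals came from MAS5, per the submitters' processing notes. The sources used here give neither its version nor its scaling target. The authors deposited the same log2 signals in 2 tables (largest difference 0). The second adds detection calls, an unadjusted p-value and a fold change, per the file headers. The deposited p-value matched an unequal-variance test and the deposited fold change the ratio of mean linear signals. They appear only where the authors' deposited table is named. Columns were tied to samples by the sample descriptions, whose numbers after Al (2 to 4) differ from the titles' repeats (1 to 3). The titles' numbers are used. The sources used here name no scan or hybridisation batch.

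Probe sets were named by the locus in the deposited annotation, and none was named from several loci. The 6 arrays limit the precision. OSA1 to OSA3 are named in that table, and OSA4 to OSA10, with other symbols, come from prior knowledge. Coordinates are the table's alignments, on a genome build that the sources used here do not name.

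The log2 signals were used as deposited. limma 3.58.1 in R 4.3.3 (lmFit, eBayes with an intensity trend, two-sided, no covariate) tested probe sets present on at least 3 arrays, with Benjamini-Hochberg adjustment over all of them and a threshold of 0.05. The fit had 4 residual degrees of freedom, and 9.47 after sharing the spread. The probe set with the highest mean signal stood for a gene. Ratios of 2 members were compared with an exact permutation test (scipy 1.17.1). Named genes were all members, in each word-search list up to 3 called genes a direction by adjusted p, and the 2 genes most correlated with each called member. Members and lists were chosen with earlier results of these data known. The alternatives were the detection filter, the trend, quantile scaling, median centring, 16 added before log2, the mean of a gene's probe sets, each array left out, and a replicate block.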

Additional observations from a re-analysis of the deposited data

How the results depend on the processing

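OSA3 and OSA7 were called lower, and no member higher, under all 14 alternatives run. OSA3 fell by 0.44 to 0.53 on the log2 scale (limma, adjusted p = 0.000238 to 0.00740) and OSA7 by 0.23 to 0.26 (adjusted p = 0.00147 to 0.0283). With 1 array left out, the number of members lower was 2 at the lowest and 2 at the highest, and the number higher 0 and 0. Of 82 member values under the alternatives, 81 kept their direction and side of the threshold. The exception was OSA5, at -0.12 without the third array before Al (-0.12 to 0.58 with 1 array left out), and OSA5 and OSA8 could not be tested where presence on all 6 arrays was required. With the replicate block, 3710 probe sets were higher and 4134 lower, and the members' calls were the same. Same-numbered arrays correlated at 0.07, 0.00 and 0.09 in their deviations from the group means, so the numbers were not taken as pairs. Not every array correlated best with the array of its own number in the other group. Over all probe sets the alternatives gave 3000 to 3710 higher and 3126 to 4134 lower. With 1 array left out, 3000 to 3383 were higher and 3126 to 3905 lower. The pairs of members that did not overlap numbered 7 to 10.

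Of 308 counts for the other lists, 275 stayed within 1.5 times. The 33 others were in counts of 5 or fewer, except the carriers called lower (15 to 24, against 23). They were 14-3-3 higher (0 to 1, against 0), vacuolar pumps higher (1 to 3, against 2) and lower (0 to 1, against 1), flippases lower (0 to 1, against 1), phosphatases lower (3 to 5, against 5), CBL-interacting kinases higher (1 to 4, against 4), and green markers higher (1 to 3, against 1) and lower (2 to 5, against 4). Of 751 values for the 54 genes named in those lists, 704 kept their side of the threshold, 40 lost their call, 7 (all Lsi1) gained one and 0 reversed. Beyond left-out arrays, the calls of LOC_Os02g09150, LOC_Os03g14690, LOC_Os07g44290, LOC_Os08g02630 and LOC_Os08g29150 were lost with no detection filter (limma, adjusted p = 0.0526 to 0.0975). Without the intensity trend these 5, OsSAUR10 and ART1 lost theirs (0.0570 to 0.119), and with quantile scaling LOC_Os03g14690 did (0.0545). Dim signals limit OSA1, OSA5 and OSA8, whose intervals span 0, and the 4 members that were not tested have no fold.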
